A study of Mus musculus with 12 samples.

Results

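Collagens are the structural proteins of the extracellular matrix, and each molecule is built from 3 chains wound into a helix. A chain is named by its type and its alpha number, so that Col9a2 encodes the alpha-2 chain of type IX. Fibrillar collagens form the fibrils of cartilage and bone. Network collagens assemble into sheets and lattices, and FACITs (fibril-associated collagens with interrupted helices) sit on the surface of fibrils. In endochondral bone formation, type II, IX and XI collagens mark cartilage, type X marks hypertrophic cartilage, and type I is the main collagen of bone. The collagen genes described here are all genes of the table whose symbol has the form Col, a type number, the letter a and a chain number. They number 44 of the 28244 genes listed, with 11 fibrillar, 9 network, 9 FACIT and 15 other members, the last holding type VI and the transmembrane, multiplexin and remaining types. All 44 passed the filter on low values, and 1 gene with a similar symbol, Col4a3bp, was not a member because it encodes no collagen chain.

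The study followed cartilage progenitors, freed with collagenase from the heads and condyles of long bones of C57/BL6 pups aged 5 or 6 days, through serial differentiation in cell pellets. Pellets spent 7 days in chondrogenic medium and were then moved to osteogenic medium. RNA was sequenced at D7, before the change of medium, and at D8, D10 and D28, after 1, 3 and 21 days in osteogenic medium, with 3 replicates at each time point and 12 libraries in all. All groups shared the strain, the source of cells and the chondrogenic phase, and pellets that stayed in chondrogenic medium were not analysed here, so time and medium cannot be told apart. The labels do not say whether replicates came from separate animals or cultures, so the p-values measure the spread between these samples, which may be technical. The pellets are bulk samples, in which fewer cells of a type and less RNA per cell cannot be told apart.

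Values are the deposited log2 of an equalized read count plus 1, and they had been brought to 1 distribution in every library. The total of the original counts, and with it the depth each library reached, is therefore unknown, and a high value encodes little more than the rank of the gene in its library. A gene ranked 1 had 20.92 in each library, and a gene ranked 2 had 19.87. Of the 9 chondrocyte markers listed (Sox9, Acan and Comp among them), all 9 were above 3 reads in at least 1 library of each time point. Their level, summed before taking the log2 and so carried by the most abundant of them, lay between 16.88 and 17.36 at D10 and between 18.25 and 19.16 in the libraries of the other time points. By mean, 8 of the 9 were lowest at D10, and Sox9 was highest there, at 12.44 against 12.38, 12.11 and 12.25 at D7, D8 and D28. The 7 osteoblast markers, also above 3 reads at each time point by this measure, summed to between 15.13 and 16.27 at D7, 13.34 and 13.57 at D8, 11.62 and 12.18 at D10, and 14.30 and 14.85 at D28. Ibsp and Alpl had means of 15.50 and 13.40 at D7 and 9.15 and 10.14 at D10, while 3 other markers of the list had their lowest mean at D7, Bglap with means of 3.21, 5.93, 6.46 and 8.98 from D7 to D28, Dmp1 with 5.23, 7.29, 8.39 and 7.44, and Phex with 4.54, 4.91, 5.87 and 5.99. The lowest value above 0, that of 1 read, was 1.22 to 1.81 in D10 libraries but 0.50 to 0.87 in those of D28, so low values were counted more coarsely at D10. By GENCODE M21 annotation, 13 members share exon sequence with another gene, 10 of them on the opposite strand. These are Col4a1 and Col4a2 (each with the other), Col4a3, Col5a1, Col6a4, Col6a6, Col9a3, Col10a1, Col15a1 and Col22a1, with Col3a1, Col7a1 and Col20a1 on the same strand. Whether counting used strand is not given in the sources used here, so reads of these members and their partners may not be told apart.

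Collagen genes spanned almost the whole range of expression. Averaged over the 12 libraries, 8 members had a log2 value over 16, namely Col2a1, Col1a1, Col1a2, Col3a1, Col10a1, Col11a1, Col11a2 and the type VI chain Col6a3. Another 14 lay above 12 and up to 16, 6 above 8 and up to 12, and 16 at or under 8. The highest time point mean was at D7 for 20 members, at D8 for 10, at D10 for 4 and at D28 for 9, with Col2a1 tied between D7, D8 and D28. The lowest mean was at D10 for 18 members and at D28 for 16, against 4 at D7 and 5 at D8, with Col6a4 tied between D7 and D10. The same counts were not made over all genes, so they do not set collagen genes apart from the rest.

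**Figure D1:**
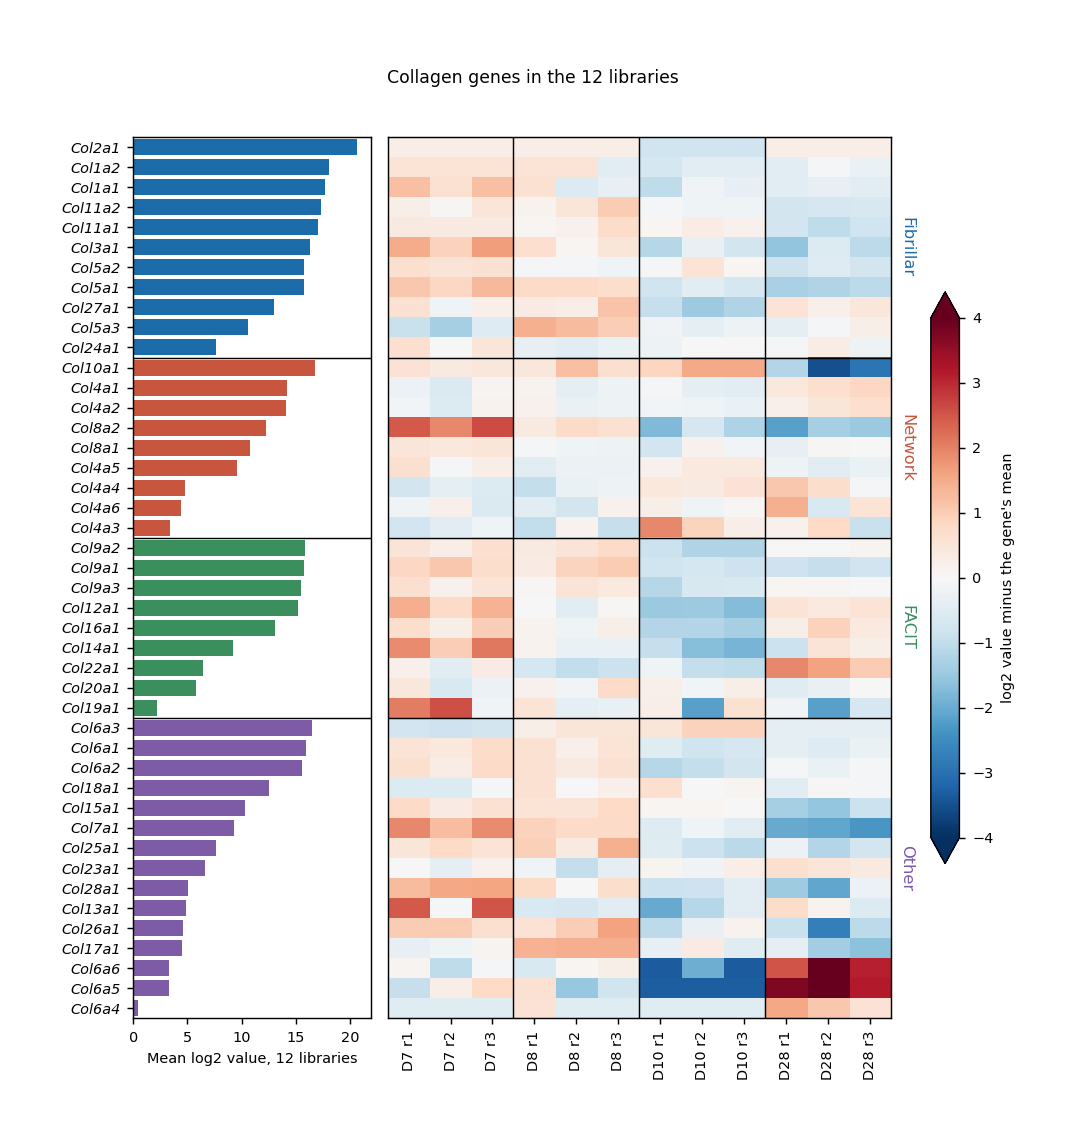
Left, mean log2 value of each collagen gene over the 12 libraries, as bars. Right, the log2 value in each library minus the gene's mean, with the colour scale ending at 4 units either way; rows are grouped by class and r1 to r3 are replicates. Col10a1 is low at D28, Col6a5 and Col6a6 are low at D10 and high at D28, and Col12a1, Col16a1 and Col27a1 are low at D10.

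Time points were compared with limma, and calls required an adjusted p under 0.05 (Benjamini-Hochberg, over all 17674 genes tested) together with a log2 fold change of 1 or more in either direction. Between D7 and D8, 3 collagen genes were called higher and 5 lower, where 3.23% and 3.81% of all genes tested were called. Between D8 and D10, 1 was called higher and 20 lower, that is 2.27% and 45.5% of the members, against 4.08% and 5.58% of all genes. The median log2 fold change of the members was -0.70 in this comparison and 0.00 over all genes. Between D10 and D28, 9 were called higher and 5 lower, that is 20.5% and 11.4% of the members, against 13.8% and 13.7% of all genes. Over the whole course, from D7 to D28, 5 were called higher and 15 lower, that is 11.4% and 34.1%, against 8.63% and 8.66% of all genes, with a median of -0.64 for members and -0.03 for all genes. In all, 32 members (72.7%) were called in at least 1 comparison, against 36.0% of all genes tested, and 12 in none: Col1a2, Col2a1, Col4a1, Col4a2, Col4a5, Col4a6, Col8a1, Col11a2, Col18a1, Col20a1, Col23a1 and Col24a1. The 4 comparisons share time points, so their counts are not independent of each other. Col6a4, counted as higher at D28 against D10 and D7, passed the filter only through its D28 libraries.

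**Figure D2:**
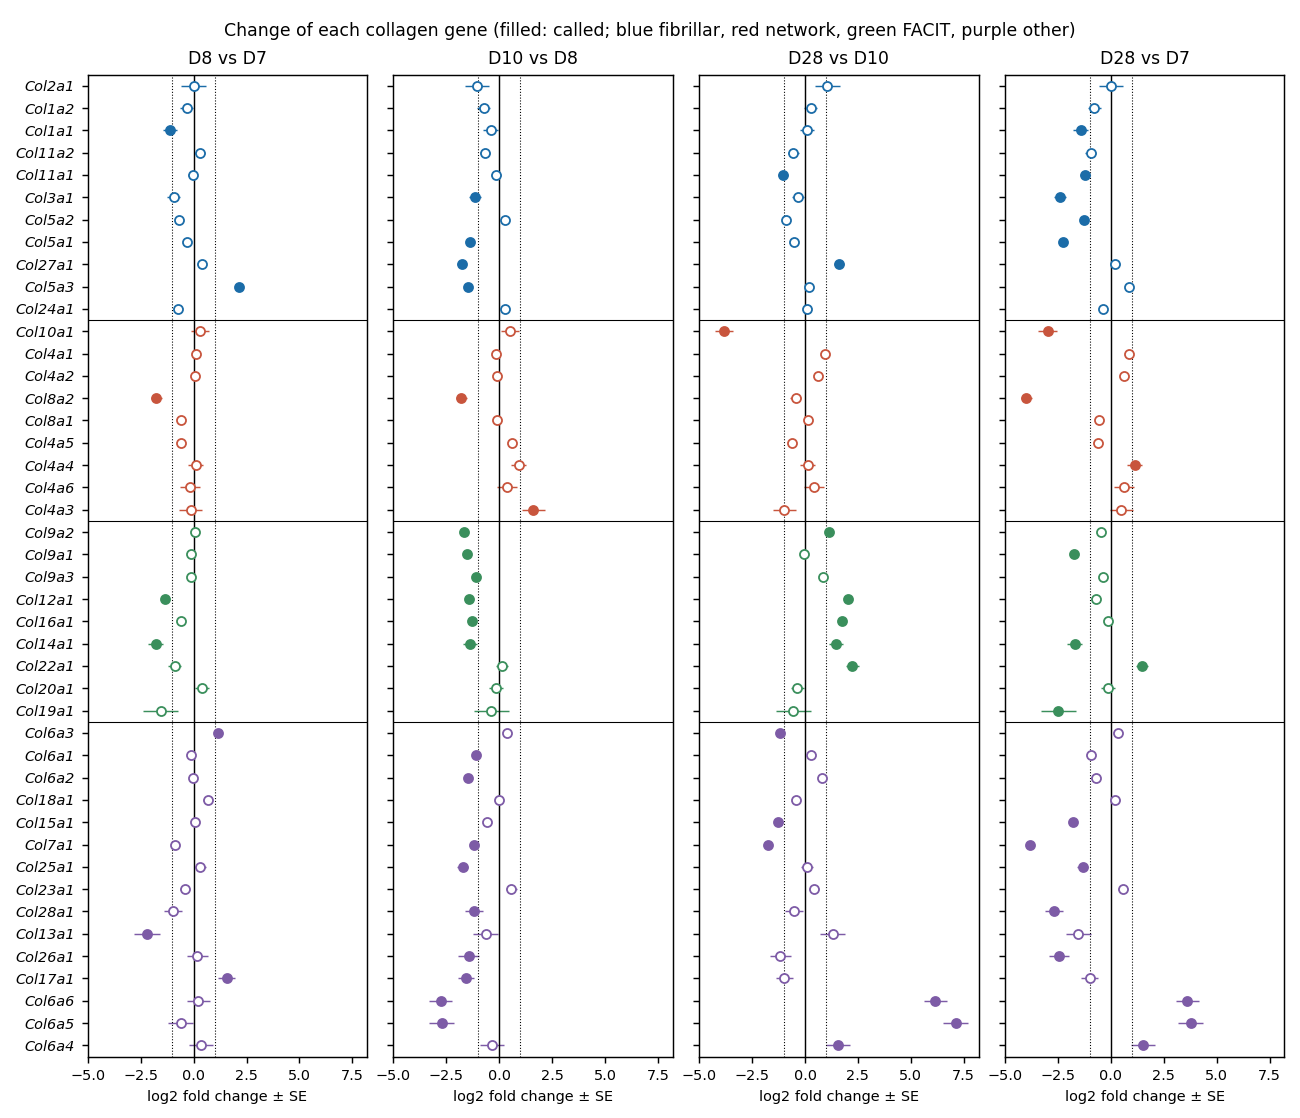
Log2 fold change (later minus earlier time point, with limma's standard error as the bar) of each collagen gene in the 4 comparisons, 3 libraries per time point. Filled points were called, dotted lines mark a log2 fold change of 1 either way, and colours mark the classes; between D8 and D10, 20 of the 21 filled points lie to the left of 0.

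Col2a1 (chr15:97975602-98004695, GRCm38, minus strand), the chain of type II collagen and the main fibrillar collagen of cartilage, was the highest gene of all in the 9 libraries of D7, D8 and D28, at 20.92 in each. At D10 it ranked second in all 3 libraries, at 19.87, below the fibronectin gene Fn1. The D10 libraries therefore lay below the others without overlap, but the step of 1.06 is the fixed gap between rank 1 and rank 2 and says nothing of how far the transcript itself moved. The log2 fold change between D8 and D10 was -1.06 (SE 0.58, limma, adjusted p = 0.19, 95% interval -2.28 to 0.17) and was not called. It was called without the variance trend, with a filter at a mean log2 value of 3, and by the study's own rule, which takes unadjusted p-values gene by gene. None of these outcomes measures a spread of Col2a1, whose replicates were identical at each time point (SD 0.00). The SE and interval come from limma's pooling over genes. The study's own rule divides by a spread of 0, so its call was fixed in advance.

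The chains of type I collagen, the main collagen of bone, stood highest at D7. Col1a1 (chr11:94936224-94953042, plus strand) was at 18.92, 18.32 and 18.92 in the D7 libraries, 18.32, 17.16 and 17.38 at D8, 16.69, 17.56 and 17.38 at D10, and 17.27, 17.38 and 17.27 at D28. The D7 libraries lay at or above every later library, and the groups met only where D7 replicate 2 and D8 replicate 1 had the same value. Col1a1 was 2.68-fold lower at D28 than at D7 (log2 fold change -1.42, SE 0.34, limma, adjusted p = 0.0039). Its call between D7 and D8 (-1.10, SE 0.34, limma, adjusted p = 0.031) was lost without D7 replicate 1, D7 replicate 3, D8 replicate 2 or D8 replicate 3, with no filter, with low values raised to the 3-read level and by the study's own rule. Col1a2 was at 18.61 in all D7 libraries, at 18.61, 18.61 and 17.65 at D8, at 17.38, 17.65 and 17.65 at D10, and at 17.65, 18.02 and 17.82 at D28. Its difference between D7 and D28 was -0.78 (SE 0.31, limma, adjusted p = 0.063), with D28 below D7 in every library, and it was called in none of the comparisons. Without D8 replicate 3 it was called lower at D10 than at D8.

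Col3a1, a fibrillar collagen of distensible connective tissue, fell over the course. It was at 17.82, 17.27 and 18.02 at D7, 17.03, 16.43 and 16.82 at D8, 15.21, 16.04 and 15.60 at D10, and 14.77, 15.79 and 15.31 at D28. Each time point up to D10 lay below the one before without overlap, and D28 overlapped D10. Col3a1 was 2.21-fold lower at D10 than at D8 (log2 fold change -1.14, SE 0.29, limma, adjusted p = 0.0082), a call lost without D10 replicate 1, and 5.33-fold lower at D28 than at D7 (-2.41, SE 0.29, adjusted p = 9.2e-06). An annotated gene, Gm47302, overlaps its exons on the same strand, and their reads cannot be told apart.

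Type V collagen, which starts fibrils of type I, changed chain by chain. Col5a1 was at 16.82, 16.58 and 17.03 at D7, 16.52, 16.52 and 16.43 at D8, 14.96, 15.28 and 15.04 at D10, and 14.45, 14.55 and 14.70 at D28. It was 2.64-fold lower at D10 than at D8 (-1.40, SE 0.17, limma, adjusted p = 3.1e-05) and 4.72-fold lower at D28 than at D7 (-2.24, SE 0.17, adjusted p = 5.9e-08). Col5a2 was lower at D28 than at D7 by a log2 fold change of -1.28 (SE 0.18, limma, adjusted p = 4.1e-05) and was called in no step between neighbouring time points. Col5a3, a minor chain, went the other way at D8. It was at 9.71, 9.29 and 10.09 at D7 and at 12.04, 11.86 and 11.59 at D8, a 4.38-fold rise (log2 fold change 2.13, SE 0.19, limma, adjusted p = 3.1e-06). At D10 it was at 10.47, 10.20 and 10.41, below all D8 libraries (-1.47, SE 0.19, adjusted p = 5.8e-05), and at 10.23, 10.53 and 10.84 at D28.

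The chains of type XI collagen, which lie inside the type II fibrils of cartilage, were called in no step up to D10 and stood lowest at D28. Col11a1 was at 17.46 in all D7 libraries, at 17.16, 17.27 and 17.82 at D8, 17.16, 17.38 and 17.27 at D10, and 16.34, 16.08 and 16.30 at D28. The D28 libraries lay below all others. The fall between D10 and D28 was 2.04-fold (-1.03, SE 0.23, limma, adjusted p = 0.0013), close to the fold change threshold, and its call was lost without D10 replicate 2 or D28 replicate 2 and with values scaled by median of ratios. The fall from D7 to D28 was 2.33-fold (-1.22, SE 0.23, limma, adjusted p = 5.4e-04). Col11a2 was at 17.56, 17.38 and 17.82 at D7, 17.46, 17.82 and 18.32 at D8, 17.27, 17.16 and 17.16 at D10, and 16.58, 16.64 and 16.69 at D28. Its D28 libraries also lay below all others, with a log2 fold change of -0.95 against D7 (SE 0.25, limma, adjusted p = 0.0077) that missed the fold change threshold and passed it without D7 replicate 2.

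Col27a1, a fibrillar collagen of growth plate cartilage, dipped at D10. It was at 13.59, 12.82 and 13.20 at D7, 13.32, 13.28 and 14.15 at D8, 12.08, 11.53 and 11.79 at D10, and 13.55, 13.21 and 13.45 at D28. The D10 libraries lay below all others, 3.44-fold below D8 (-1.78, SE 0.23, limma, adjusted p = 5.4e-05) and 3.04-fold below D28 (1.60, SE 0.23, adjusted p = 2.2e-05). Col24a1, the remaining fibrillar member, stayed within time point means of 7.29 and 8.02.

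**Figure D3:**
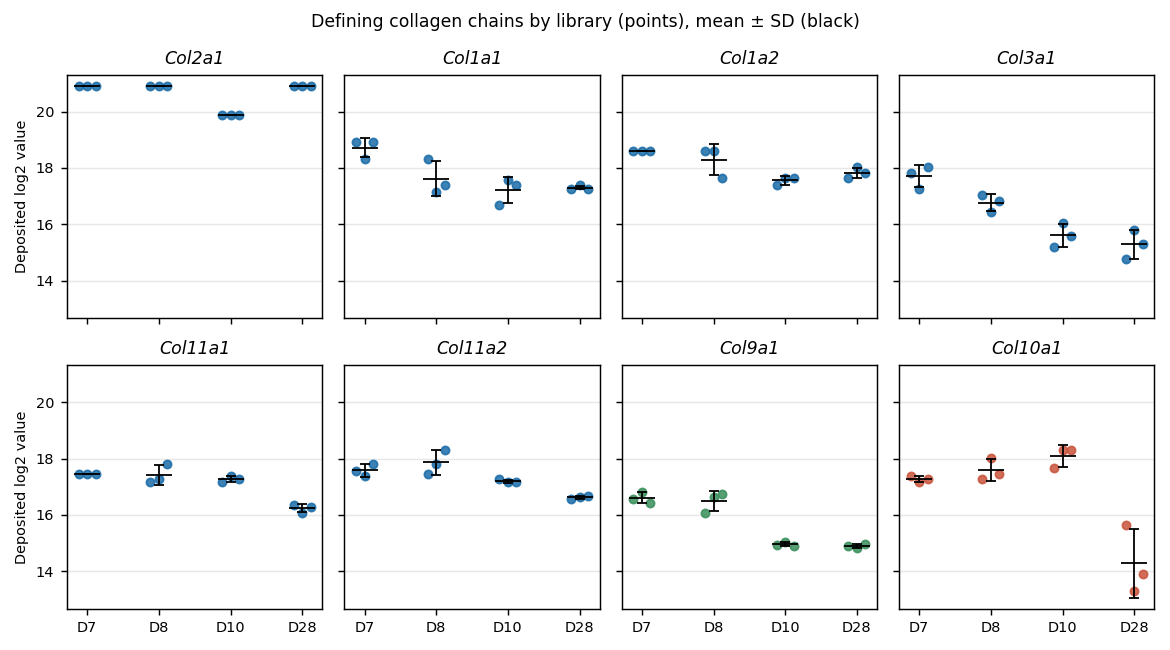
Deposited log2 value of 8 chains that define collagen types, with 1 point per library (3 per time point) and the mean ± SD in black. Points of Col2a1 coincide because its rank was the same in every library of a time point, and the D28 libraries of Col10a1 lie between 13.31 and 15.64, below the 9 earlier ones.

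Values divided by the length of the longest coding transcript in kilobases put genes of different length on 1 scale, but at the top they remain steps between ranks, so distances between the highest genes are not measured ratios. On this scale Col2a1 led at each time point, with a log2 level of 18.57 at D7, D8 and D28 and 17.52 at D10. At D7 it was followed by Col1a2 (16.19 ± 0.00, SD, n = 3) and Col1a1 (16.16 ± 0.35), which overlapped, and then by Col10a1 (15.62 ± 0.11). At D10 Col10a1 held the second place (16.45 ± 0.39), above Col1a2 (15.14 ± 0.16) without overlap. At D28 the order was Col2a1, Col1a2 (15.41 ± 0.19), Col1a1 (14.74 ± 0.07) and Col9a2 (14.35 ± 0.05), each without overlap with the next, and Col10a1 was in place 13 (12.64 ± 1.22).

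The sequences upstream of 4 members are shown because their changes, described below, are among the largest, and because Col6a5 and Col6a6 neighbour each other in the genome and moved in the same direction. They are taken from the 250 bases before the RefSeq start (GRCm38.p6), less any that lie inside the GENCODE gene model (75 for Col6a6 and 1 for Col8a2), and are printed 5' to 3' on the gene's own strand, for Col10a1 (chr10:34389731-34389980, plus strand), Col6a5 (chr9:105960644-105960893, minus strand), Col6a6 (chr9:105828161-105828335, minus strand) and Col8a2 (chr4:126286544-126286792, plus strand). Capitals mark matches, on either strand, to the TATA box core TATAAA and the Sp1 GC box core GGGCGG, among 4 motifs searched.
Col10a1: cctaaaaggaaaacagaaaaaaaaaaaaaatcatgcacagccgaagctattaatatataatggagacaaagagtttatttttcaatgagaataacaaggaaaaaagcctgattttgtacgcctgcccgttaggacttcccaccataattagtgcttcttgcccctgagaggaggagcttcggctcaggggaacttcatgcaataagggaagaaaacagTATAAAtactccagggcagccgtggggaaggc
Col6a5: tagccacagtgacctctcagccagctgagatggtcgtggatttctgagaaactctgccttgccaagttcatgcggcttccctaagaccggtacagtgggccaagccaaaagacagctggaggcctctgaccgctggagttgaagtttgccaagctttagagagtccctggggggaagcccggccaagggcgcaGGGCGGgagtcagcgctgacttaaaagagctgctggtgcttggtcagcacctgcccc
Col6a6: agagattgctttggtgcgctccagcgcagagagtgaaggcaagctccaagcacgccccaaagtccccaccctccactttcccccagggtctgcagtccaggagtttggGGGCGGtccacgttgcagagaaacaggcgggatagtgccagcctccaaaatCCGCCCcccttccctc
Col8a2: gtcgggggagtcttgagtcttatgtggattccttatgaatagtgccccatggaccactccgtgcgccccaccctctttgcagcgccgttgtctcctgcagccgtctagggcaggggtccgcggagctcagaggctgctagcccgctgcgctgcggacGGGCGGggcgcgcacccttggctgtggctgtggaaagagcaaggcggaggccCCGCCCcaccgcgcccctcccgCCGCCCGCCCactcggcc
The TATAAA of Col10a1 lies 32 to 27 bases before its start, and the Col6a5, Col6a6 and Col8a2 windows hold 1, 2 and 4 matches to GGGCGG, of which the 2 nearest the start of Col8a2 overlap. Of the 35 collagen genes with a window in the table, 5 held TATAAA (Col3a1, Col10a1, Col11a2, Col13a1 and Col17a1) and 21 held GGGCGG. By window, these shares were 13.2% and 57.9% of the 38 collagen windows, against 12.4% and 32.7% of all 32851 windows of this length. The median GC content was 59.0% in the collagen windows and 52.4% in all. The RUNX core TGTGGT was found in 3 collagen genes (Col8a1, Col17a1 and Col18a1), that is 7.89% of their windows against 14.0% of all. The SOX core AACAAT was found in Col3a1 alone, 2.63% against 9.42%. None of the 4 windows printed held these last motifs. A match is a string of letters and not a binding site.

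Among network collagens, Col10a1 (chr10:34389981-34397085, plus strand), the marker of hypertrophic chondrocytes, had its highest mean at D10 and its lowest at D28. It was at 17.38, 17.16 and 17.27 at D7, 17.27, 18.02 and 17.46 at D8, 17.65, 18.32 and 18.32 at D10, and 15.64, 13.31 and 13.89 at D28. The D28 libraries lay below all others and had a wider spread than those of any earlier time point. The differences between D7 and D8 (0.32, SE 0.44, limma, adjusted p = 0.67) and between D8 and D10 (0.52, SE 0.44, adjusted p = 0.41) did not pass the test. From D10 to D28 Col10a1 fell 14.1-fold (-3.82, SE 0.44, limma, adjusted p = 2.7e-06), the largest fall of a collagen gene in that step, and from D7 to D28 it fell 7.92-fold (-2.99, SE 0.44, adjusted p = 6.1e-05). Without D28 replicate 1, the highest of its group, these log2 fold changes were -4.50 and -3.67. The gene Nt5dc1 overlaps its exons on the opposite strand.

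Col8a2 (chr4:126286793-126314330, plus strand), a chain of the short-chain type VIII collagen, had the largest estimated fall between D7 and D28, next to Col7a1 described below. It was at 14.69, 14.14 and 14.84 at D7, 12.59, 12.98 and 12.84 at D8, 10.45, 11.57 and 10.99 at D10, and 10.06, 10.90 and 10.74 at D28. It was 3.37-fold lower at D8 than at D7 (-1.75, SE 0.26, limma, adjusted p = 2.1e-04), 3.48-fold lower at D10 than at D8 (-1.80, SE 0.26, adjusted p = 1.4e-04) and 15.9-fold lower at D28 than at D7 (-3.99, SE 0.26, adjusted p = 1.7e-08). Its partner Col8a1 stayed between time point means of 10.57 and 11.27 and was not called.

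The type IV chains form the network of basement membranes. Col4a1 and Col4a2, which lie head to head on chromosome 8 with 5' ends that overlap on opposite strands, had means between 13.87 and 14.80 and were highest at D28. Col4a1 was at 13.92, 13.58 and 14.26 at D7 and at 14.56, 14.84 and 14.99 at D28, without overlap, a log2 fold change of 0.87 (SE 0.19, limma, adjusted p = 0.0016) that missed the fold change threshold and passed it without D7 replicate 3. The minor chains were low. Col4a3 was at 2.66, 2.95 and 3.26 at D7, 2.44, 3.55 and 2.50 at D8, 5.34, 4.30 and 3.68 at D10, and 3.60, 4.22 and 2.52 at D28. Its call between D8 and D10 (1.61, SE 0.54, limma, adjusted p = 0.037) was lost without D8 replicate 1, D8 replicate 3, D10 replicate 1 or D10 replicate 2, and under 4 other settings that kept the fold change threshold. Col4a4 was at 4.04, 4.36 and 4.22 at D7, 3.82, 4.51 and 4.56 at D8, 5.19, 5.13 and 5.35 at D10, and 5.83, 5.46 and 4.73 at D28. It was 2.20-fold higher at D28 than at D7 (1.14, SE 0.35, limma, adjusted p = 0.019), a call lost without D7 replicate 1, D28 replicate 1 or D28 replicate 2 and with a pseudocount of 10. The 5 endothelial markers, of cells that carry a basement membrane, summed to between 4.31 and 5.46 at D7 and between 5.64 and 7.71 at D8. They summed to between 4.04 and 6.48 at D10 and between 4.09 and 5.18 at D28. Kdr was at or under 3 reads at D7, Cdh5 and Tie1 at D10, and Cdh5 at D28. The 5 adipocyte markers, of cells that also carry a basement membrane, summed to between 15.80 and 16.27 at D28 and between 11.21 and 12.65 in the earlier libraries, and their part in the type IV levels was not tested. Col4a5, with time point means between 9.27 and 9.89, and Col4a6, between 4.11 and 4.90, were not called.

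Most FACITs were called lower at D10. Between D8 and D10, 6 of 9 were called lower and none higher, with a median log2 fold change of -1.30, beside 9 of 15 lower with a median of -1.18 among the other collagens, and this difference between classes was not tested. Between D10 and D28, 5 of 9 were called higher and none lower, with a median of 1.13. These counts stand against 5.58% of all genes called lower in the first step and 13.8% called higher in the second, and both steps rest on the same D10 libraries, in which 8 of the 9 chondrocyte markers, all but Sox9, also had their lowest mean. The part of either in the other was not tested.

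Type IX collagen sits on the type II fibrils of cartilage. Col9a1 was at 16.58, 16.82 and 16.43 at D7, 16.08, 16.64 and 16.76 at D8, 14.94, 15.04 and 14.91 at D10, and 14.91, 14.83 and 14.96 at D28. It fell 2.89-fold between D8 and D10 (-1.53, SE 0.19, limma, adjusted p = 4.0e-05) and its D28 libraries overlapped those of D10, 3.28-fold below D7 (-1.71, SE 0.19, adjusted p = 3.3e-06). Col9a2 was at 16.38, 16.13 and 16.52 at D7, 16.22, 16.38 and 16.64 at D8, 15.01, 14.65 and 14.64 at D10, and 15.87, 15.87 and 15.96 at D28. It fell 3.13-fold at D10 (-1.64, SE 0.18, limma, adjusted p = 1.4e-05) and, unlike Col9a1, was called higher again at D28 (1.13, SE 0.18, adjusted p = 6.3e-05). Col9a3 fell by a log2 fold change of -1.11 at D10 (SE 0.19, limma, adjusted p = 5.1e-04), a call lost without D10 replicate 1. At D28 its change of 0.85 (SE 0.19, limma, adjusted p = 0.0013) missed the fold change threshold. The gene Tcfl5 overlaps exons of Col9a3 on the opposite strand.

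Types XII and XIV bind type I fibrils in tendon, ligament and perichondrium. Col12a1 was at 16.64, 15.96 and 16.58 at D7, 15.17, 14.77 and 15.23 at D8, 13.72, 13.73 and 13.46 at D10, and 15.73, 15.60 and 15.73 at D28. It fell 2.52-fold at D8 (-1.33, SE 0.19, limma, adjusted p = 1.5e-04) and 2.68-fold more at D10 (-1.42, SE 0.19, adjusted p = 7.7e-05), and rose 4.14-fold from D10 to D28 (2.05, SE 0.19, adjusted p = 2.7e-07). Col14a1 was at 11.15, 10.25 and 11.37 at D7, 9.39, 9.002 and 8.99 at D8, 8.32, 7.57 and 7.38 at D10, and 8.38, 9.76 and 9.50 at D28. It fell at D8 (-1.79, SE 0.34, limma, adjusted p = 0.0014) and at D10 (-1.37, SE 0.34, adjusted p = 0.0064), rose at D28 against D10 (1.46, SE 0.34, adjusted p = 0.0018) and ended 3.27-fold below D7. The 4 fibroblast and tendon markers, all above 3 reads in at least 1 library of each time point, summed to between 9.30 and 9.82 at D10 and between 10.47 and 11.31 in the libraries of the other time points. Dpt, Tnmd and Thbs4 had their lowest mean at D10, but the tendon factor Scx its highest, with means of 8.25, 8.57, 8.83 and 6.00 from D7 to D28. Whether such cells had a part in the levels of these chains was not tested.

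Col16a1 was at 13.82, 13.34 and 14.09 at D7, 13.26, 12.95 and 13.33 at D8, 11.94, 11.92 and 11.76 at D10, and 13.35, 14.04 and 13.49 at D28. The D10 libraries again lay below both neighbours, 2.46-fold below D8 (-1.30, SE 0.19, limma, adjusted p = 1.7e-04) and 3.36-fold below D28 (1.75, SE 0.19, adjusted p = 1.7e-06). Col22a1, a FACIT known from tissue junctions such as that of muscle and tendon, had its highest values at D28. It was at 6.63, 5.99 and 6.76 at D7, 5.72, 5.43 and 5.56 at D8, 6.25, 5.46 and 5.40 at D10, and 8.34, 8.04 and 7.45 at D28. It was 4.71-fold higher at D28 than at D10 (2.24, SE 0.30, limma, adjusted p = 1.4e-05) and 2.79-fold higher than at D7 (1.48, SE 0.30, adjusted p = 0.0011). Col19a1 was at 4.22, 4.75 and 2.03 at D7, 2.73, 1.77 and 1.87 at D8, 2.44, 0 and 2.79 at D10, and 2.03, 0 and 1.50 at D28. The groups of D7 and D28 met at 2.03, and the call between them (-2.49, SE 0.83, limma, adjusted p = 0.027) was lost without D7 replicate 1, D7 replicate 2 or D28 replicate 2, with low values raised to the 3-read level, without the variance trend and by the study's own rule. Without D7 replicate 3 the log2 fold change was -3.31. Both groups held libraries at or under 3 reads. Col20a1, with means between 5.58 and 6.11, was not called in any comparison.

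Type VI collagen forms the beaded filaments around chondrocytes, from Col6a1, Col6a2 and a longer chain such as Col6a3, Col6a5 or Col6a6. The chains parted in these data. Col6a1 and Col6a2 fell between D8 and D10 by log2 fold changes of -1.10 (SE 0.18, limma, adjusted p = 3.2e-04) and -1.47 (SE 0.17, adjusted p = 2.6e-05). Col6a3 was at 15.79, 15.72 and 15.82 at D7, 16.76, 17.03 and 17.03 at D8, 17.03, 17.46 and 17.46 at D10, and 16.13 in all D28 libraries. It was 2.24-fold higher at D8 than at D7 (1.16, SE 0.19, limma, adjusted p = 4.8e-04) and 2.27-fold lower at D28 than at D10 (-1.18, SE 0.19, adjusted p = 8.0e-05).

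Col6a5 (chr9:105856078-105960643) and Col6a6 (chr9:105687809-105828160), neighbours on the minus strand of chromosome 9, were low until D10 and rose by D28. Col6a5 was at 2.37, 3.55 and 4.11 at D7, 3.91, 1.77 and 2.50 at D8, 0 in all D10 libraries, and 7.02, 7.87 and 6.45 at D28. Against a floor of 3 reads per library (a log2 value of 2.87), it was at least 18.9-fold higher at D28 than at D10 (limma, adjusted p = 9.0e-08), and it was 13.7-fold higher than at D7 (log2 fold change 3.77, SE 0.59, adjusted p = 1.2e-04). Col6a6 was at 3.45, 2.30 and 3.26 at D7, 2.73, 3.39 and 3.55 at D8, 0, 1.37 and 0 at D10, and 5.83, 7.57 and 6.44 at D28. The D28 libraries lay above all others, 12.2-fold above D7 (3.61, SE 0.55, limma, adjusted p = 9.2e-05). Both genes were also called lower at D10 than at D8, although no D10 library exceeded 3 reads of either, and these calls were lost when low values were raised to the 3-read level or with a pseudocount of 10. Col6a4 (chr9:105989454-106096783), the third gene of this stretch, was at 0 in the D7 and D10 libraries, at 1.06, 0 and 0 at D8, and at 2.03, 1.54 and 1.06 at D28. It passed the filter on low values only through its D28 libraries, where it was highest. Its calls as higher at D28 than at D7 and D10 (limma, adjusted p = 0.043 and 0.032) are therefore no support for a rise. No size is given, since 2 of the D28 libraries were at or under 3 reads. The call was lost on leaving out any 1 of 11 libraries against D7, or any 1 of 5 against D10. In both it was also lost with a pseudocount of 10 or low values raised to the 3-read level. At D28 all 5 adipocyte markers were at their highest mean, as given above, and any part of this in the rise of type VI chains was not tested.

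Several low or specialised collagens fell through the course. Col7a1, the anchoring fibril collagen of epithelia, was at 11.19, 10.52 and 11.18 at D7, 10.20, 10.02 and 10.04 at D8, 8.76, 9.11 and 8.84 at D10, and 7.27, 7.19 and 6.95 at D28. Each time point lay below the one before without overlap, and the fall from D7 to D28 was 14.2-fold (-3.83, SE 0.17, limma, adjusted p = 2.9e-10). Of the 4 epithelial markers, Krt5 was at or under 3 reads at each time point. Their sums lay between 5.07 and 5.98 at D7 and between 6.15 and 6.74 at D8. At D10 they lay between 4.71 and 4.85, and at D28 between 2.92 and 5.29. They were thus highest at D8, where Col7a1 lay below D7, and their part was not tested. Col15a1, a multiplexin, was not called up to D10. It was at 11.11, 10.68 and 10.95 at D7, 10.89, 10.88 and 11.15 at D8, 10.44, 10.42 and 10.36 at D10, and 9.03, 8.82 and 9.48 at D28, a fall of 2.46-fold in the last step (-1.30, SE 0.15, limma, adjusted p = 3.6e-06). Col28a1, a collagen known from peripheral nerve, was at 6.28, 6.56 and 6.59 at D7, 5.82, 4.99 and 5.72 at D8, 4.16, 4.19 and 4.57 at D10, and 3.60, 2.95 and 4.80 at D28 (D28 against D7 -2.69, SE 0.41, limma, adjusted p = 9.9e-05). The 3 Schwann cell markers summed to between 6.86 and 7.16 at D7 and between 3.98 and 4.39 at D28, and their part in the fall of Col28a1 was not tested. Col26a1, with time point means of 5.47, 5.65, 4.19 and 3.03, was lower at D28 than at D7 (-2.44, SE 0.49, limma, adjusted p = 9.7e-04; -1.84 without D28 replicate 2). The calls of Col26a1 (-1.45, SE 0.49, limma, adjusted p = 0.035) and Col28a1 (-1.20, SE 0.41, adjusted p = 0.040) between D8 and D10 were each lost without D8 replicate 3, D10 replicate 1 or D10 replicate 2, that of Col26a1 also without D8 replicate 2, and that of Col28a1 also without D7 replicate 1, D8 replicate 1 or D10 replicate 3. Both were lost with no filter and without the variance trend, and that of Col28a1 with a pseudocount of 10 or low values raised to the 3-read level. Col18a1, the other multiplexin, stayed between means of 12.12 and 12.78 and was not called.

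The transmembrane collagens XIII, XVII, XXIII and XXV changed separately. Col13a1 was at 7.36, 4.86 and 7.43 at D7, 4.30, 4.25 and 4.49 at D8, 2.87, 3.76 and 4.49 at D10, and 5.63, 5.06 and 4.37 at D28. It was lower at D8 than at D7 (-2.20, SE 0.60, limma, adjusted p = 0.016), a call lost without D7 replicate 1 or D7 replicate 3, with low values raised to the 3-read level and by the study's own rule. Without D7 replicate 2 the log2 fold change was -3.05. Col17a1 was at 4.14, 4.30 and 4.56 at D7 and 5.85, 5.93 and 5.91 at D8, 2.95-fold higher (1.56, SE 0.39, limma, adjusted p = 0.0093), and was at 4.16, 4.81 and 3.97 at D10, below D8 (-1.58, SE 0.39, adjusted p = 0.0064). Its D28 libraries were at 4.11, 3.07 and 2.82. Type XVII collagen is known from epithelial hemidesmosomes, and the 4 epithelial markers summed to between 5.07 and 5.98 at D7, 6.15 and 6.74 at D8, and 4.71 and 4.85 at D10, led by Epcam and Cdh1, so they too were highest at D8. Their part was not tested. Col25a1 was at 8.15, 8.46 and 8.19 at D7, 8.62, 8.01 and 9.08 at D8, 7.15, 6.79 and 6.58 at D10, and 7.43, 6.48 and 6.91 at D28. It was 3.32-fold lower at D10 than at D8 (-1.73, SE 0.27, limma, adjusted p = 2.7e-04). Col23a1, between means of 6.18 and 7.17, was not called. Col13a1 is also known from the neuromuscular junction. The 6 skeletal muscle markers summed to between 11.39 and 11.72 at D7 and between 9.67 and 10.36 at D8, so they were lower at D8 as Col13a1 was. They were lower still at D10 (8.25 to 8.61) and D28 (6.53 to 7.44), while the mean of Col13a1 went from 3.71 to 5.02. Col22a1, known from the junction of muscle and tendon, was highest at D28, where these markers were lowest. Their part was not tested.

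The log2 difference of the chains of a pair within each library does not move when the library is scaled. The deposited values had been brought to 1 distribution, however, which can move it. Among the highest genes it is a gap between values set by rank. It was compared over the 4 time points for 11 pairs with an exact permutation test over the 12 libraries. Of these, 9 passed an adjusted p of 0.05 over the pairs. For Col8a1 minus Col8a2 the difference went from -3.39, -2.92 and -3.53 at D7 to 0.43, -0.03 and 0.08 at D28 (exact permutation, adjusted p = 3.6e-04), so that the chains met at D28. For Col5a1 minus Col5a2 it was 0.39, 0.28 and 0.65 at D7, 0.77, 0.79 and 0.81 at D8, -0.76, -1.06 and -0.83 at D10, and -0.49, -0.73 and -0.36 at D28 (exact permutation, adjusted p = 3.6e-04), so that the difference was above 0 in the libraries of D7 and D8 and below 0 in those of D10 and D28. Per kilobase, Col5a1 and Col5a2 overlapped at D7 (13.74 ± 0.22 and 13.64 ± 0.07, SD, n = 3). For both pairs the unadjusted p of 6.5e-05 is the smallest the permutations can give. For Col6a3 minus Col6a2 the time point means were -0.37 ± 0.19, 0.83 ± 0.24, 2.68 ± 0.14 and 0.69 ± 0.10 (SD, n = 3, exact permutation, adjusted p = 0.0014).

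Col9a1 minus Col9a2 was between -0.14 and 0.69 in the 9 libraries up to D10 and between -1.04 and -0.96 at D28 (exact permutation, adjusted p = 0.021). Col3a1 minus Col1a1 had means of -1.02 ± 0.11, -0.86 ± 0.39, -1.59 ± 0.16 and -2.02 ± 0.45 in the order of the time points (SD, n = 3, exact permutation, adjusted p = 0.0093), lowest at D28. Col4a1 minus Col4a2 stayed within -0.13 and 0.27 in every library, with D28 above the rest (exact permutation, adjusted p = 0.022). Col2a1 minus Col1a1 was lowest at D7 (2.20 ± 0.35) and highest at D28 (3.62 ± 0.07, SD, n = 3, exact permutation, adjusted p = 0.021), but the level of Col2a1 was set by its rank and was the same at D7, D8 and D28, so between these time points the pair restates the values of Col1a1. Col6a1 minus Col6a2 and Col11a1 minus Col11a2 also passed (exact permutation, adjusted p = 0.021 and 0.034), over ranges of 0.52 and 0.53. The range of Col6a1 minus Col6a2 was 0.34 without D10 replicate 1. Without D28 replicate 1, 2 or 3, the adjusted p of Col2a1 minus Col1a1, Col6a1 minus Col6a2 and Col4a1 minus Col4a2 lay between 0.054 and 0.063. Col2a1 minus Col1a1 was also lost without D7 replicate 1 or 3. Col11a1 minus Col11a2 was lost without D7 replicate 1, or replicate 2 or 3 of D8, D10 or D28. Col1a1 minus Col1a2 (exact permutation, adjusted p = 0.19) and Col9a3 minus Col9a2 (adjusted p = 0.21) did not pass, and the latter passed without D10 replicate 1 (adjusted p = 0.0074).

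**Figure D4:**
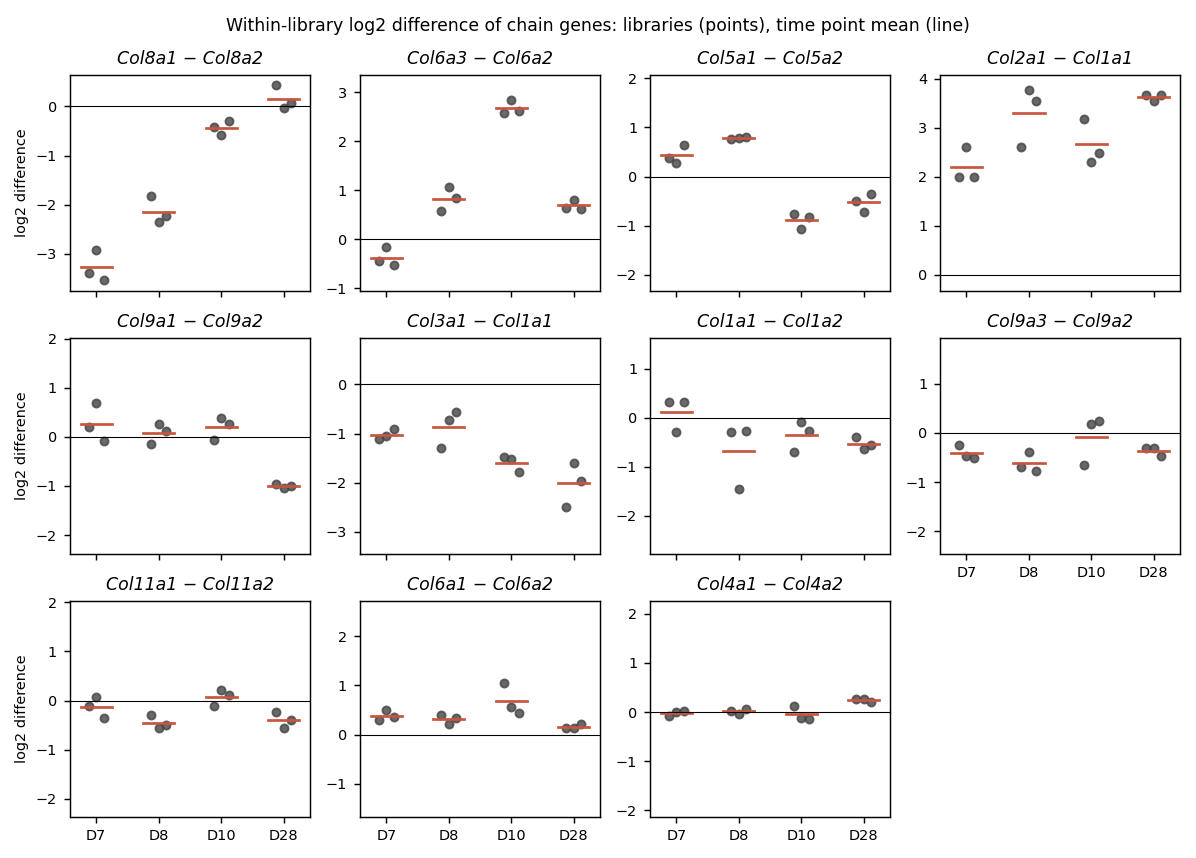
Log2 value of the first chain minus that of the second, within each library, for 11 pairs ordered by the range of their time point means. Points are libraries (3 per time point) and lines are means; axes have like spans with separate offsets, and the thin line marks 0. Col8a1 meets Col8a2 by D28, and the difference of Col5a1 and Col5a2, without length correction, goes from above to below 0 at D10.

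Unlogged, the collagen genes held 17.4 ± 1.09% of the summed values at D7 (SD, n = 3), 15.9 ± 0.07% at D8, 9.55 ± 0.74% at D10 and 12.3 ± 0.12% at D28. The D10 libraries, between 8.72% and 10.1%, lay below those of every other time point. Col2a1 alone was given 7.79% at D7, D8 and D28 and 3.75% at D10 by its rank, so the share without it is the better guide, at 9.60%, 8.12%, 5.81% and 4.51% in that order. By class, FACITs held 1.38%, 1.11%, 0.407% and 0.806%, and network collagens held 0.854%, 0.957%, 1.26% and 0.322%. FACITs were lowest at D10. The network share moved with Col10a1, which held 0.619%, 0.789% and 1.12% up to D10 and between 0.0396% and 0.201% in the D28 libraries, and the other 8 network members together had their lowest share at D10, with 0.235%, 0.168%, 0.139% and 0.222%. These shares are of equalized values, without length correction, and describe the libraries without a test.

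**Figure D5:**
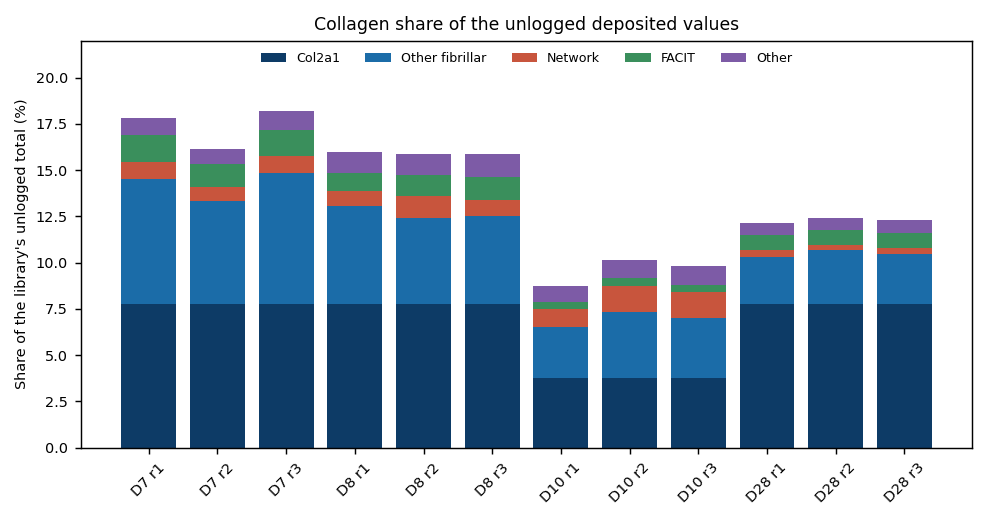
Share of each library's unlogged deposited total held by Col2a1, the other fibrillar, network, FACIT and other collagen genes, stacked, with 3 libraries per time point. The bars reach between 16.2% and 18.2% at D7 and between 8.72% and 10.1% at D10.

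Collagen chains are hydroxylated and folded in the endoplasmic reticulum, trimmed by propeptide proteases and cross-linked by lysyl oxidases. Of the 37 genes listed, all tested, 1 was called higher and 2 lower between D7 and D8, none higher and 7 lower between D8 and D10, 7 higher and 3 lower between D10 and D28, and 2 higher and 9 lower between D7 and D28. As shares, higher and lower, these were 2.70% and 5.41% between D7 and D8 (all genes 3.23% and 3.81%), 0% and 18.9% between D8 and D10 (4.08% and 5.58%), 18.9% and 8.11% between D10 and D28 (13.8% and 13.7%), and 5.41% and 24.3% between D7 and D28 (8.63% and 8.66%). The falls between D8 and D10 and between D7 and D28 stood furthest above the share of all genes. At D8, the lysyl oxidase Loxl4 rose (1.17, SE 0.19, limma, adjusted p = 5.4e-04), while the prolyl hydroxylase subunit P4ha3 (-1.26, SE 0.21, adjusted p = 6.7e-04) and the procollagen protease enhancer Pcolce (-1.05, SE 0.21, adjusted p = 0.0023) fell, the last call being lost without D7 replicate 1, D7 replicate 3 or D8 replicate 2.

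At D10, the largest falls against D8 were those of the lysyl oxidase Loxl2 (-1.68, SE 0.21, limma, adjusted p = 4.8e-05), the N-propeptidase Adamts3 (-1.37, SE 0.36, adjusted p = 0.0092) and Pcolce (-1.34, SE 0.21, adjusted p = 2.9e-04). Pcolce was at 11.41, 12.18 and 11.99 at D10 and 14.36, 14.35 and 14.45 at D28, the largest rise of the list in that step (2.53, SE 0.21, limma, adjusted p = 9.6e-08). Adamts2, the main N-propeptidase of type I procollagen, rose from 10.50, 10.59 and 10.39 to 12.14, 12.66 and 12.45 in the same step (1.92, SE 0.14, limma, adjusted p = 2.6e-08). Adamts3, which acts on type II procollagen, went the other way, from 8.48, 8.08 and 8.27 at D7 to 5.93, 6.12 and 6.45 at D10 and 4.95, 3.07 and 3.95 at D28 (D28 against D7 -4.29, SE 0.36, limma, adjusted p = 2.1e-07). The 2 proteases thus changed in opposite directions between D7 and D28, Adamts2 by 1.23 (SE 0.14, limma, adjusted p = 6.2e-06). Tll2, a tolloid protease, was at 0 at D7 and D10 and was called higher at D28 (adjusted p = 0.017 and 0.011, limma), a call lost without D28 replicate 3, against D7 also without D28 replicate 1, and with a pseudocount of 10 or low values raised to the 3-read level. Tll2 passed the filter on low values only through its D28 libraries, so these calls are no support for a rise. Between D10 and D28, Loxl4 (-2.83, SE 0.19, limma, adjusted p = 1.1e-08), Adamts3 (-2.18, SE 0.36, adjusted p = 9.5e-05) and the tolloid Tll1 (-2.06, SE 0.21, adjusted p = 9.0e-07) fell. The largest falls of D28 against D7 after Adamts3 were those of Loxl3 (-2.69, SE 0.19, limma, adjusted p = 3.3e-08) and Tll1 (-2.41, SE 0.21, adjusted p = 3.8e-07).

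Cells bind collagens through integrins and other receptors. Of 10 receptor genes listed, 9 were tested. Itga2, the integrin chain that binds type I and other collagens, was at 4.69, 4.80 and 4.79 at D7, 9.39, 9.76 and 9.66 at D8, 9.25, 9.97 and 10.40 at D10, and 4.20, 4.00 and 4.22 at D28. It was 4.84 log2 units higher at D8 than at D7 (SE 0.24, limma, adjusted p = 2.0e-08) and 5.73 lower at D28 than at D10 (SE 0.24, adjusted p = 5.5e-11). Itga10, the collagen integrin chain of chondrocytes, was at 10.78, 10.85 and 10.93 at D10 and 12.35, 12.42 and 12.34 at D28 (1.52, SE 0.12, limma, adjusted p = 4.9e-08) and also passed against D7 (1.21, SE 0.12, adjusted p = 1.2e-06). Itga1 rose between D10 and D28 (1.29, SE 0.11, limma, adjusted p = 1.4e-07). The immune receptor Lair1 was listed at 0 at D10, and its call at D28 (limma, adjusted p = 0.012) was lost without D28 replicate 2 or 3, with a pseudocount of 10, with low values raised to the 3-read level and by the study's own rule. The 5 macrophage and blood markers summed to between 9.65 and 10.46 at D10 and between 9.71 and 12.11 at D28, and their part was not tested. Itga11 was lower at D28 than at D7 (-1.03, SE 0.19, limma, adjusted p = 6.1e-04), a call lost without D7 replicate 3 or D28 replicate 1 and with values scaled by median of ratios. Between D8 and D10, 0 of the 9 was called by limma, where 4.08% and 5.58% of all genes were called higher and lower, and 2 (Ddr1 and Ddr2) had an unadjusted p under 0.05.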

How the data were processed

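RNA sequencing values of 12 libraries, 3 per time point, were analysed. The authors deposited 1 table with the log2 of an equalized HTSeq count plus a pseudocount of 1 per gene symbol, and replicates were not pooled. The submitters' processing notes name Trimmomatic 0.36, HISAT2, Cufflinks, HTSeq and the build GRCm38, while the supplementary methods name a human genome. The labels describe 2 library preparations, both stranded, without saying which library had which. The strand setting of the counting is not given in the sources used here. Sorted values are nearly the same in every library (median spread 0.00285 above a value of 5), so fold changes of high genes are steps between ranks. The depth each library reached is unknown, and the level of 3 reads was read from the lowest distinct values of each library. Such floors cover counting error only.

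Genes that reached a log2 value of 1 in 3 libraries or more (17674, with 10570 left out) were tested with limma 3.58.1 in R 4.3.3, with 1 coefficient per time point, a variance trend and 8 residual degrees of freedom, two-sided, and Benjamini-Hochberg adjustment over all genes. Intervals are at 95%. Chain pairs were compared by an exact permutation test in Python 3.11.15 with numpy 2.4.6, where both genes had a mean log2 value of at least 5, which left out 1 of 12 pairs. Levels per kilobase used the longest coding transcript of GENCODE M21 (GRCm38). Upstream sequences are those of RefSeq. Scripts were tested on simulated data.

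Values in every library are given for 8 defining chains and, per comparison, for the 5 called members with the largest rise and fall, and for some further members chosen after their values were seen. For the synthesis list the 3 largest called rises and falls are named. The members and all lists were chosen with earlier results of these data known. Alternatives covered the filter, normalization, pseudocount, floor, replicate block, the fold change threshold, the study's own rule, the variance trend and each library left out. No date is given in the labels and no preparation is tied to a library, so batches could not be examined.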

Additional observations from a re-analysis of the deposited data

How the results depend on the processing

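Of the 63 calls of collagen genes, 0 reversed and 49 held under every alternative other than a log2 fold change of at least 2, and 12 were lost on leaving out a single library. Raising the fold change threshold to 2 left 1 higher and 1 lower between D7 and D8, 0 and 2 between D8 and D10, 4 and 1 between D10 and D28, and 2 and 8 between D7 and D28. Without a fold change threshold, 13 were lower between D7 and D8, 2 higher between D8 and D10, 9 lower between D10 and D28 and 8 higher between D7 and D28. Low values raised to the 3-read level and the study's own rule each gave 3 lower between D7 and D8, and the single rise between D8 and D10 became 0 with no filter, a pseudocount of 10, the raised floor or the study's own rule. With a pseudocount of 10, 3 were higher between D7 and D28. The cause was not tested.

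Leaving out 1 library in turn gave 3 to 8 lower between D7 and D8, with 3 without D7 replicate 1 or 3 and 8 without D7 replicate 2. It gave 0 to 1 higher between D8 and D10, with 0 without replicate 1 or 3 of D8 or replicate 1 or 2 of D10. It gave 3 to 6 higher between D7 and D28, with 3 without D7 replicate 1, D28 replicate 1 or D28 replicate 2. The 20 falls between D8 and D10 ranged from 16 to 20. Of the 11 chain pairs tested, 9 passed with all libraries and 5 to 10 with 1 left out, with 5 without D28 replicate 2 or 3 and 10, Col9a3 minus Col9a2 among them, without D10 replicate 1.

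The replicate numbers are not stated to mark shared cultures, and over 18 pairs of same-numbered samples the correlation of deviations lay between -0.06 and 0.07. With the replicate block, 1 of the 63 calls was lost, that of Col6a4 between D7 and D28, and 6 chain pairs passed in place of 9. The pairs lost were Col2a1 minus Col1a1 and Col4a1 minus Col4a2 (exact permutation, adjusted p = 0.066 for each) and Col9a1 minus Col9a2 (0.052). Scaling by median of ratios moved the median of all genes between D10 and D28 from -0.10 to 0.01 and left 4 lower and 10 higher.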
